A study of Homo sapiens with 6 samples.

Results

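The ESCRT and exosome release machinery is described here through 40 genes, of 20289 in the deposited table, chosen by their symbols. They encode the endosomal sorting complexes ESCRT-0, ESCRT-I, ESCRT-II and ESCRT-III, the VPS4 ATPases with their cofactor, ALIX and syntenin, the sphingomyelinase SMPD3, effectors of the Rab27 GTPases, and the flotillins. RNA was sequenced in 6 libraries labelled as T24, an established human bladder cancer line. In 3 libraries the cells carried a pcDNA3.1 plasmid with LINC00665, a long intergenic non-coding RNA, and in the other 3 they carried the vector plasmid as control. Both groups were kept in serum-containing RPMI and transfected with a lipid reagent, so overexpression from a plasmid is the model. The labels give no time after transfection. The design text names 3 independent experiments, and its stated interest is how LINC00665 acts in lymph node metastasis. P-values measure the spread between these libraries.

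ESCRT complexes bend and cut membranes away from the cytosol. On endosomes they sort ubiquitinated receptors into vesicles inside the multivesicular body, and the same late-acting filaments cut the bridge between dividing cells, bud viruses and seal the nuclear envelope. A multivesicular body either fuses with the lysosome, where its vesicles are degraded, or docks at the plasma membrane and releases them as exosomes, a step in which Rab27 and its effectors act.

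The library totals were 17289788 to 22725687 expected counts. The level of LINC00665 itself was not analysed here. A test for sample mix-ups found that 3 of the 6 libraries went against their labelled line, so groups are named by their labels throughout. Leaving those libraries out would leave nothing to compare, and the cell line and the plasmid cannot be told apart as sources of any difference given here. Of 12 urothelial and epithelial markers, 11 were higher and 0 lower under the LINC00665 label, with summed levels of 10000 to 11800 CPM in LINC00665 libraries and 1040 to 3200 CPM in Vector libraries. CPM is the expected count scaled to the effective library size. GRHL2, GATA3, TP63 and EPCAM had only 0 to 8 counts each over the Vector libraries together. KRT8 and KRT18 were abundant under both labels, at means of 1622 and 1893 CPM in LINC00665 libraries and 837 and 1001 CPM in Vector libraries. KRT18 did not pass the edgeR test (adjusted p = 0.1). Of 12 kidney tubule markers, 5 were tested and all of these were lower under the LINC00665 label, with sums of 15.4 to 17.2 CPM in LINC00665 libraries and 381 to 544 CPM in Vector libraries. PAX8 had 871 counts over the LINC00665 libraries and 15247 over the Vector libraries, and the other 4 tested had 2 to 11 counts over the LINC00665 libraries and 1276 to 3953 over the Vector libraries. Of the 7 not tested, LRP2 had 22 and 1 counts, AQP1 29 and 11, and CUBN 27 and 31, over the LINC00665 and the Vector libraries in this order, and SLC12A1 and UMOD were at 0 under both labels. Fibroblast markers summed to 243 to 270 CPM in LINC00665 libraries and 2.07 to 4.1 CPM in Vector libraries, with 5 of 6 tested higher. Most of the LINC00665 sum was THY1 and COL1A1, at means of 164.5 and 71.3 CPM. COL3A1 did not pass (1.39 CPM in LINC00665 libraries and 0.65 CPM in Vector libraries). The untested LUM had 10 and 9 counts and DCN 19 and 0, over the LINC00665 and the Vector libraries in this order. Endothelial markers summed to 11.7 to 13.9 CPM in LINC00665 libraries and 0.28 to 1.14 CPM in Vector libraries, with the 3 tested of 7 higher, while CDH5 had 28 counts over the LINC00665 libraries and 25 over the Vector libraries and CLDN5 had 0 and 4. Leukocyte markers summed to 26.2 to 38.7 CPM in LINC00665 libraries and 10.7 to 16.8 CPM in Vector libraries, with 3 of 3 tested higher, and PTPRC had 0 counts under the LINC00665 label and 1 under the Vector label. Many of these markers passed the filter on low counts only through the group where they were high, among them all 3 endothelial ones, so such counts describe the lists and support nothing. The part of these differences in the results that follow was not tested. In bulk RNA, fewer cells of a type and less RNA per cell cannot be told apart.

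Over the whole machinery the 2 labels differed about as often as over all genes. Of the 40 members, 39 passed the filter on low counts and 26 of these (66.7%) were past an adjusted p of 0.05 by edgeR's quasi-likelihood test, against 63.5% of all 13552 genes tested. Of the tested members 11 (28.2%) rose, against 34.2% of all genes, and 15 (38.5%) fell, against 29.3%. The 3 libraries of each label did not overlap for 28 of the 39 (71.8%), against 70.2% of all genes. The median log2 fold change of the members was -0.17 and the median size was 0.70, against 0.03 and 0.82 over all genes tested. These shares lie near the background, so the account below is of single genes and of how related genes stood to each other. SYTL1, counted among the 11 that rose, passed the filter only through its level under the LINC00665 label, so its call supports nothing. SMPD3, not called, passed the filter only through its level under the Vector label.

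**Figure D1:**
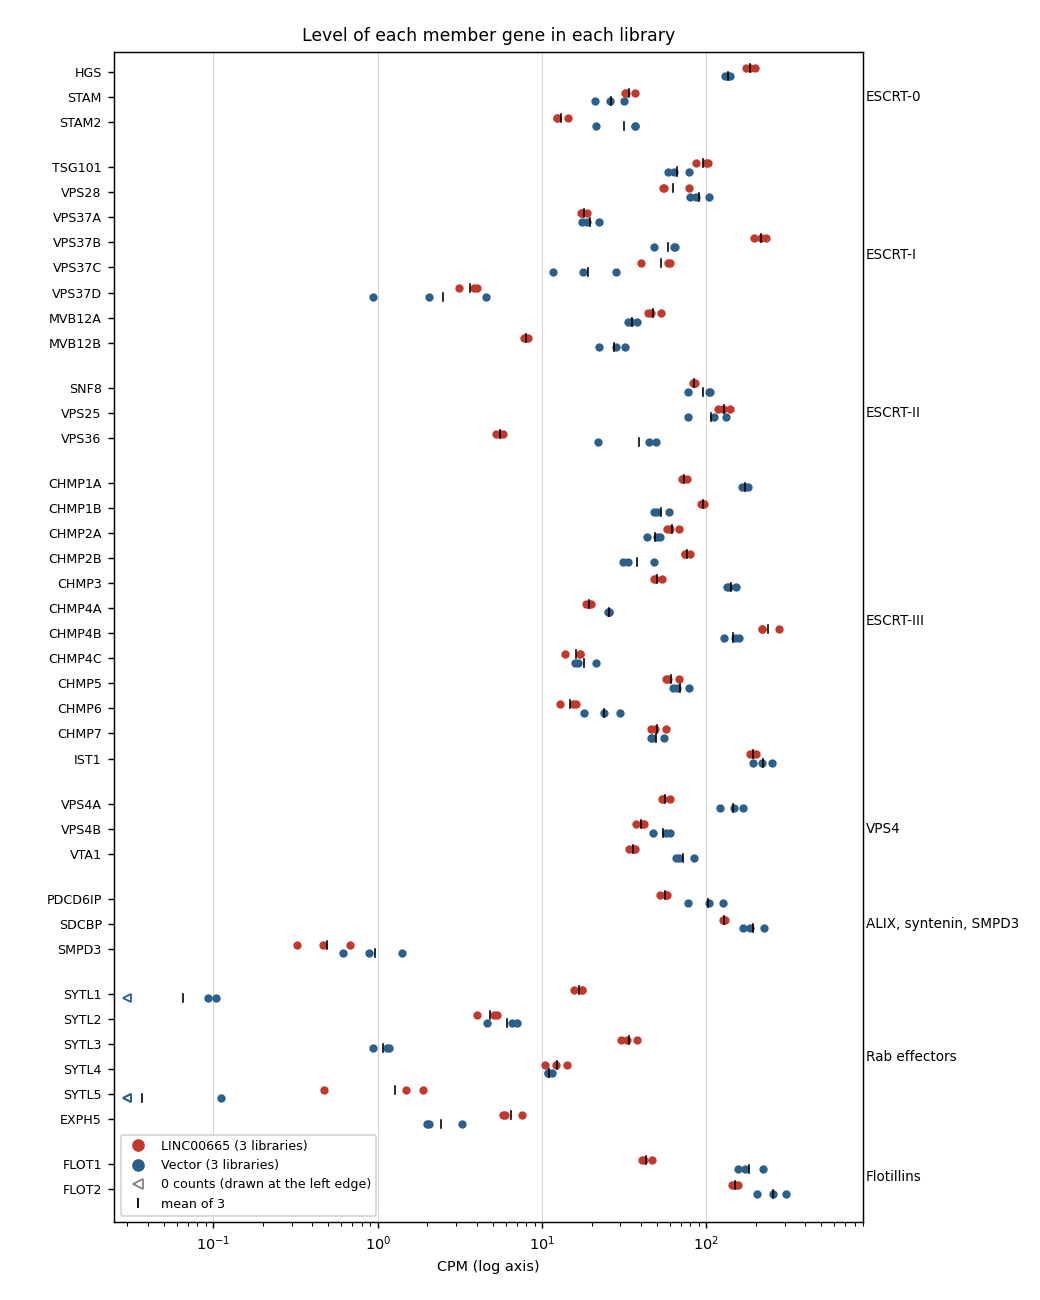
CPM on a log axis (horizontal) of each of the 40 members, by complex, with a point per library (red, LINC00665 above; blue, Vector below), a black mark at the mean of 3, and an open triangle where a library had 0 counts. SYTL1 and SYTL3 stand far to the right in the LINC00665 libraries, at means of 16.8 and 33.8 CPM against 0.0656 and 1.08 CPM in the Vector libraries, while VPS36 and FLOT1 stand to the left.

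The stretches just upstream of 4 genes are shown because these genes had the largest log2 fold changes among the 39 members tested, SYTL1 and SYTL3 upwards and VPS36 and FLOT1 downwards. They are RefSeq sequences of GRCh38.p14, written 5′ to 3′ on the strand of the gene and ending at or just before the start of the gene in GENCODE v29. Capitals mark matches on either strand to GGGCGG (the GC box), CACGTG (the E-box), TGANTCA (the AP-1 motif) or CCAAT.
SYTL1 (chr1:27341772-27342019, plus strand): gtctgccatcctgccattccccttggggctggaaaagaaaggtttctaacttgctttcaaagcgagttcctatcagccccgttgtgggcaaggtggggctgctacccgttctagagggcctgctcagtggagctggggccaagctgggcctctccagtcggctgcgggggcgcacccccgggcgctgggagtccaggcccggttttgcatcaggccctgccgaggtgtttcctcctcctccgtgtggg
SYTL3 (chr6:158649804-158650013, plus strand): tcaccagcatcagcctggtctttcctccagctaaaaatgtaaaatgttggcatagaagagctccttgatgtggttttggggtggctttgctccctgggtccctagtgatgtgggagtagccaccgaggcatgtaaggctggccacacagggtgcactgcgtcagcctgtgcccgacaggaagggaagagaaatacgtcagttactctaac
VPS36 (chr13:52450635-52450884, minus strand): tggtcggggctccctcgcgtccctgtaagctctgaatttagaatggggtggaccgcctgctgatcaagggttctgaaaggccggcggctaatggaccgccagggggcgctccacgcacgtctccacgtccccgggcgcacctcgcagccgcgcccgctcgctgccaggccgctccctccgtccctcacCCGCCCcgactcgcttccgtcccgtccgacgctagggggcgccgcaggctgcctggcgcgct
FLOT1 (chr6:30742734-30742937, minus strand): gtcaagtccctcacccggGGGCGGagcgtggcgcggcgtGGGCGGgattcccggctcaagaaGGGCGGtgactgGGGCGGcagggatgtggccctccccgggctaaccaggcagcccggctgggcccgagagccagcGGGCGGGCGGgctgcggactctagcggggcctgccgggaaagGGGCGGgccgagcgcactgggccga

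The printed stretch of SYTL1 holds 11 CG dinucleotides in 248 bases and that of SYTL3 holds 4 in 210 bases. The stretch of VPS36 holds 31 in 250 bases and that of FLOT1 holds 23 in 204 bases. FLOT1 shows 7 matches to the GC box, of which 2 overlap, VPS36 shows 1, and the stretches shown for SYTL1 and SYTL3 have no match to any of the 4 motifs. SYTL3 and VPS36 each have a second RefSeq start, not shown, with 1 match to the AP-1 motif in the 250 bases upstream for SYTL3 and 1 to the E-box for VPS36. Over the 250 bases upstream of 35116 RefSeq starts the GC box was found in 42.6%, CCAAT in 32%, the AP-1 motif in 6.57% and the E-box in 6.34%, and the median number of CG dinucleotides was 11. For the 30 members with such a sequence outside chromosome 8 (38 starts) the shares were 50%, 26.3%, 15.8% and 13.2% in the same order. Their median was 21.5 CG dinucleotides. Members on chromosome 8 were left out, a limit not set on the background. Each start of a gene was counted separately, and the stretches of IST1 overlap. These matches describe letters only.

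ESCRT-0 holds ubiquitinated cargo on the endosome. HGS (HRS), its large subunit, rose, and STAM2, a partner of HGS that also binds ubiquitin, fell, while the paralogue STAM did not pass the test. HGS was at 175, 197 and 184 CPM in the LINC00665 libraries, against 135, 130 and 139 CPM in the Vector libraries, a difference of 0.46 on the log2 scale (SE 0.13, adjusted p = 0.013). STAM2 was at 14.3, 12.4 and 12.4 CPM in the LINC00665 libraries, against 36.8, 21.2 and 36.7 CPM in the Vector libraries (-1.28, SE 0.23, adjusted p = 0.0016). The groups did not overlap for either gene, as for 70.2% of all genes tested. Vector replicate 2 lay nearest to the LINC00665 libraries for STAM2. STAM stood at 33.8 ± 2.73 CPM in LINC00665 libraries and 26.2 ± 5.24 CPM in Vector libraries (SD, n = 3 each), with an adjusted p of 0.11, and passed at 0.022 without Vector replicate 3. The call of HGS was lost with total-count scaling (adjusted p = 0.067, log2 fold change 0.30), on the FPKM scale (0.071 and 0.065) and without LINC00665 replicate 3 (0.057).

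ESCRT-I joins the cargo-bound layer to the later complexes and is built of TSG101, VPS28, a VPS37 and an MVB12 subunit. VPS37B and VPS37C, alternative VPS37 subunits, were the largest increases, and MVB12B, a ubiquitin-binding accessory subunit, was the largest decrease. VPS37B was at 196, 230 and 215 CPM in the LINC00665 libraries, against 47.9, 64.0 and 64.1 CPM in the Vector libraries (log2 fold change 1.87, SE 0.17, adjusted p = 3.1e-05). VPS37C was at 58.4, 59.8 and 39.8 CPM in the LINC00665 libraries, against 17.8, 11.6 and 28.1 CPM in the Vector libraries (1.46, SE 0.32, adjusted p = 0.004). MVB12B was at 8.0, 7.78 and 8.18 CPM in the LINC00665 libraries, against 22.2, 28.2 and 32.2 CPM in the Vector libraries (-1.78, SE 0.19, adjusted p = 7.2e-05). For all 3 genes every LINC00665 library lay outside the range of the Vector libraries. The groups did not overlap for 70.2% of all genes tested.

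TSG101, the subunit that recognises ubiquitin and short proline-containing peptides of HGS and of viral Gag proteins, was at 86.3, 103 and 98.8 CPM in the LINC00665 libraries, against 58.6, 63.2 and 78.1 CPM in the Vector libraries (log2 fold change 0.53, SE 0.16, adjusted p = 0.019). VPS28, which contacts ESCRT-II, was at 55.2, 78.2 and 54.5 CPM in the LINC00665 libraries, against 79.4, 104 and 86.6 CPM in the Vector libraries (-0.52, SE 0.19, adjusted p = 0.041). LINC00665 replicate 2 reached almost the lowest Vector library for VPS28. MVB12A, at 47.6 ± 4.65 CPM in LINC00665 libraries and 35.4 ± 2.37 CPM in Vector libraries, rose by 0.43 on the log2 scale (adjusted p = 0.03). VPS37A (17.9 ± 0.849 CPM in LINC00665 libraries and 19.6 ± 2.36 CPM in Vector libraries) and VPS37D (3.66 ± 0.476 and 2.51 ± 1.86 CPM in the same order) did not pass the test (adjusted p = 0.5 and 0.36). VPS37D passed without Vector replicate 2, with a log2 fold change of 1.28 (adjusted p = 0.018), against 0.55 with all libraries; without Vector replicate 3 its log2 fold change was 0.16. The small changes depended on the libraries: adjusted p reached 0.074 for TSG101 (without LINC00665 replicate 2 or 3 or Vector replicate 1, and with total-count or FPKM scaling), 0.15 for VPS28 (without LINC00665 replicate 1 or 3 or Vector replicate 2, and over genes at 1 CPM or more in both groups) and 0.13 for MVB12A. The last was lost on leaving out any one library other than Vector replicate 2, with the replicate block (0.057), with total-count scaling and on the FPKM scale.

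ESCRT-II bridges ESCRT-I to ESCRT-III and consists of SNF8, VPS36 and paired VPS25 subunits. VPS36, which binds ubiquitin and lipids, fell furthest of all members. It was at 5.81, 5.52 and 5.28 CPM in the LINC00665 libraries, against 49.4, 22.0 and 45.1 CPM in the Vector libraries, a difference of -2.81 on the log2 scale (SE 0.31, adjusted p = 9.3e-05). Vector replicate 2 was the lowest of its group and still far above the LINC00665 libraries, and the log2 fold change without it was -3.09. The partners SNF8 (84.1 ± 1.16 CPM in LINC00665 libraries and 95.2 ± 15.9 CPM in Vector libraries) and VPS25 (128 ± 11.1 and 106 ± 26.9 CPM in the same order) did not pass the test (adjusted p = 0.35 and 0.28). On FPKM, which is per gene length and so allows levels of different genes to be compared, VPS36 was 0.0141, 0.0125 and 0.0125 of SNF8 in the LINC00665 libraries, against 0.107, 0.0498 and 0.13 in the Vector libraries. In both groups VPS36 RNA was thus well below that of its partners. VPS36 lies on chromosome 13 at 52412602 to 52450628 of GRCh38 (minus strand) and shares 357 exon bases on the same strand with THSD1, which was at 18 CPM in LINC00665 libraries and 1.75 CPM in Vector libraries, the opposite order.

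ESCRT-III subunits are CHMP proteins that polymerise into the filaments that cut the membrane neck. Among the 12 tested, 3 rose (25%, against 34.2% of all genes tested), 4 fell (33.3%, against 29.3%) and 5 were not past the threshold. These shares lie near the background. CHMP1B, which recruits VPS4 and the severing enzyme spastin, was at 97.3, 93.1 and 94.9 CPM in the LINC00665 libraries, against 48.3, 59.6 and 50.0 CPM in the Vector libraries (log2 fold change 0.85, SE 0.14, adjusted p = 9e-04). Its paralogue CHMP1A was at 71.9, 76.2 and 70.8 CPM in the LINC00665 libraries, against 164, 179 and 171 CPM in the Vector libraries (-1.23, SE 0.13, adjusted p = 7.3e-05). This pair thus moved in opposite directions with no overlap between the labels for either gene, as for 70.2% of all genes tested.

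CHMP2B, a filament capping subunit mutated in a familial frontotemporal dementia, was at 74.5, 73.6 and 79.3 CPM in the LINC00665 libraries, against 33.2, 31.3 and 48.3 CPM in the Vector libraries (1.01, SE 0.19, adjusted p = 0.0018). CHMP4B, the main filament-forming subunit, was at 218, 276 and 219 CPM in the LINC00665 libraries, against 128, 158 and 149 CPM in the Vector libraries (0.71, SE 0.16, adjusted p = 0.0045). CHMP3, which assembles with the CHMP2 proteins, was at 53.9, 48.1 and 48.4 CPM in the LINC00665 libraries, against 134, 151 and 137 CPM in the Vector libraries (-1.48, SE 0.14, adjusted p = 3.4e-05). In each of these 3 genes the labels were separated by more than the spread within them. Labels did not overlap for 70.2% of all genes tested.

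CHMP6, which couples ESCRT-II to CHMP4, was at 12.8, 16.02 and 15.5 CPM in the LINC00665 libraries, against 23.96, 18.0 and 29.9 CPM in the Vector libraries (-0.70, SE 0.22, adjusted p = 0.021). Its call was lost without LINC00665 replicate 1 (adjusted p = 0.089), LINC00665 replicate 3 (0.052) or Vector replicate 1 (0.052). CHMP4A stood at 19.3 ± 0.669 CPM in LINC00665 libraries and 25.5 ± 0.216 CPM in Vector libraries (-0.40, adjusted p = 0.031) and lost its call on leaving out any one LINC00665 library or Vector replicate 1, with the replicate block and over genes at 1 CPM or more in both groups (largest adjusted p 0.12). CHMP4A shares 644 exon bases with AL136295.1 on its own strand (1.38 CPM in LINC00665 libraries and 0 CPM in Vector libraries), so its counts are uncertain.

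The remaining ESCRT-III members did not pass: CHMP2A (0.34, adjusted p = 0.069), CHMP4C of the abscission checkpoint (-0.16, 0.46), CHMP5 (-0.17, 0.35), CHMP7 of the nuclear envelope (0.03, 0.86) and IST1 (-0.20, 0.27), given as log2 fold change and adjusted p. CHMP2A passed with DESeq2 (0.045), over genes at 1 CPM or more in both groups (0.04) and without Vector replicate 3 (0.045). IST1 passed on the FPKM scale, with a log2 fold change of -0.51 (adjusted p = 0.0059). By mean FPKM the order under the LINC00665 label began with CHMP4B (140 ± 15.9), IST1 (130 ± 2.94) and CHMP2A (66.9 ± 4.39), and under the Vector label with IST1 (186 ± 18.6), CHMP4B (95.6 ± 8.91) and CHMP1A (77.0 ± 2.07). CHMP4B and IST1 lay within their spread of each other under the LINC00665 label and apart under the Vector label. CHMP4C and CHMP6 were the lowest under the LINC00665 label (8.17 ± 1.17 and 8.45 ± 0.864 FPKM), and CHMP4C under the Vector label (10.2 ± 1.71 FPKM).

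The VPS4 ATPases take the filaments apart, and VTA1 (LIP5) activates them. All 3 members fell, as did 29.3% of all genes tested. VPS4A was at 54.5, 59.9 and 54.0 CPM in the LINC00665 libraries, against 147, 121 and 166 CPM in the Vector libraries (log2 fold change -1.37, SE 0.16, adjusted p = 0.00013). VTA1 was at 34.1, 36.6 and 36.5 CPM in the LINC00665 libraries, against 67.7, 65.6 and 83.8 CPM in the Vector libraries (-1.02, SE 0.15, adjusted p = 5e-04). VPS4B was at 41.6, 37.5 and 41.2 CPM in the LINC00665 libraries, against 59.7, 47.3 and 56.9 CPM in the Vector libraries (-0.45, SE 0.15, adjusted p = 0.028). The groups did not overlap for any of the 3, as for 70.2% of all genes tested, and VPS4B was the closest. Its call was lost on leaving out any one LINC00665 library or Vector replicate 1, with the replicate block (0.051), over genes at 1 CPM or more in both groups and on the FPKM scale (largest adjusted p 0.098). Of the exon bases of VPS4A, 22% are shared with COG8 on the opposite strand (16.7 CPM in LINC00665 libraries and 61.3 CPM in Vector libraries) and 21% with another gene on its own strand (22.5 and 40.5 CPM in the same order), so its counts cannot be assigned with certainty.

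ALIX, encoded by PDCD6IP, reaches ESCRT-III directly by binding CHMP4, and syntenin, encoded by SDCBP, links it to syndecans during exosome formation. Both fell. PDCD6IP was at 57.3, 52.5 and 57.2 CPM in the LINC00665 libraries, against 126, 103 and 76.9 CPM in the Vector libraries (log2 fold change -0.88, SE 0.19, adjusted p = 0.0042). SDCBP was at 126, 128 and 129 CPM in the LINC00665 libraries, against 185, 224 and 168 CPM in the Vector libraries (-0.59, SE 0.15, adjusted p = 0.0085). The LINC00665 libraries lay within a narrow range and the Vector libraries were spread, with no overlap. Over all genes tested, 29.3% fell and 70.2% had no overlap. SMPD3, a neutral sphingomyelinase whose product ceramide promotes ESCRT-independent budding, was scarce in all libraries, at 0.465, 0.683 and 0.323 CPM in the LINC00665 libraries, against 0.886, 0.611 and 1.4 CPM in the Vector libraries. These groups overlapped, and the difference did not pass the test (-0.97, SE 0.46, adjusted p = 0.098).

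The synaptotagmin-like proteins SYTL1 to SYTL5 and EXPH5 (Slac2-b) bind Rab27 through their amino-terminal domain. In human HeLa cells SYTL4 and EXPH5 are known to act in the docking of multivesicular bodies. SYTL1, SYTL3 and EXPH5 rose (60% of the 5 tested, against 34.2% of all genes tested). None of the 5 fell, against 29.3% of all genes tested. The 60% includes SYTL1, which entered the test only through the group where it was high, so this share supports nothing. SYTL1 was at 17.6, 17.4 and 15.6 CPM in the LINC00665 libraries, against 0.0932, 0 and 0.104 CPM in the Vector libraries, where it had 4 counts in all (log2 fold change 7.83, SE 0.41, adjusted p = 1.6e-06). SYTL1 passed the filter on low counts only through its level under the LINC00665 label, so its p-value supports nothing. SYTL3 was at 32.8, 38.0 and 30.4 CPM in the LINC00665 libraries, against 0.932, 1.17 and 1.14 CPM in the Vector libraries (4.96, SE 0.21, adjusted p = 5e-07). EXPH5 was at 5.81, 5.99 and 7.54 CPM in the LINC00665 libraries, against 2.01, 2.06 and 3.26 CPM in the Vector libraries (1.40, SE 0.27, adjusted p = 0.0023). SYTL1 was thus nearly confined to the LINC00665 label. SYTL3, low under the Vector label with 63 counts in all, and EXPH5 were read in all libraries.

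SYTL5 did not pass the filter and was not tested. It was at 1.49, 0.473 and 1.88 CPM in the LINC00665 libraries (76 counts in all), against 0, 0.111 and 0 CPM in the Vector libraries (2 counts in all), a ratio of 37.8 with an exact 95% binomial interval of 10.1 to 318 that covers counting error only. SYTL4 (12.3 ± 1.94 CPM in LINC00665 libraries and 11.1 ± 0.401 CPM in Vector libraries) and SYTL2 (4.80 ± 0.709 and 6.09 ± 1.31 CPM in the same order) did not pass (adjusted p = 0.5 and 0.25). SYTL4 shares 1298 exon bases with SRPX2 on the opposite strand, which was at 85.6 CPM in LINC00665 libraries and 0.129 CPM in Vector libraries, so the level of SYTL4 under the LINC00665 label is uncertain. The fold of SYTL1 depends on the constant added before the logarithm, with a log2 fold change of 3.14 on log2(FPKM + 1), and that of SYTL3 was 3.24 on that scale. SYTL2 passed on the FPKM scale, at -0.86 with a constant of 1 (adjusted p = 0.0027) and -1.29 with 0.1 (adjusted p = 0.0034).

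The flotillins FLOT1 and FLOT2 form scaffolds in cholesterol-rich membrane and are common exosome markers. FLOT1 was at 46.5, 41.6 and 40.8 CPM in the LINC00665 libraries, against 155, 171 and 222 CPM in the Vector libraries (log2 fold change -2.09, SE 0.18, adjusted p = 2.2e-05). FLOT2 was at 155, 144 and 150 CPM in the LINC00665 libraries, against 253, 306 and 204 CPM in the Vector libraries (-0.76, SE 0.17, adjusted p = 0.0047). Both fell with no overlap between the labels, FLOT1 by more. Of all genes tested, 29.3% fell and 70.2% had no overlap. FLOT1 lies on chromosome 6 at 30727709 to 30742733 of GRCh38, on the minus strand. SYTL3 is on the same chromosome at 158650014 to 158764876 and SYTL1 on chromosome 1 at 27342020 to 27353937, both on the plus strand.

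**Figure D2:**
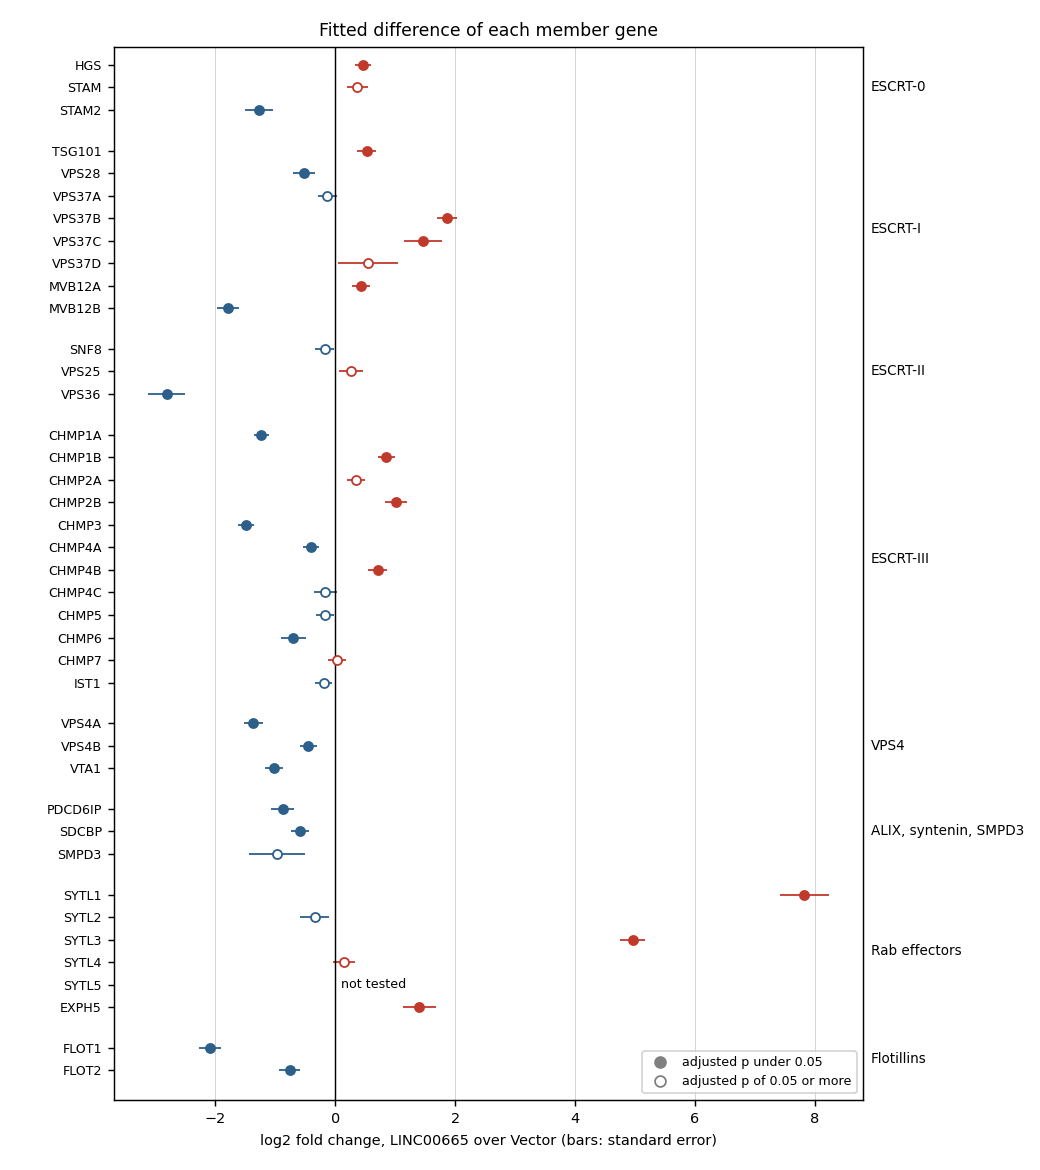
Log2 fold change of each tested member, LINC00665 over Vector (horizontal, bars show the standard error), by complex, with filled points for an adjusted p under 0.05 and open points otherwise. All 3 members of the VPS4 group and both flotillins lie left of 0, SYTL1 (7.83) and SYTL3 (4.96) lie furthest right of those tested (SYTL5 was not), and ESCRT-I and ESCRT-III have called members on both sides; CHMP7 and SYTL4, both near 0, change side with total-count scaling.

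The summed FPKM of the ESCRT-II members was 203 ± 9.13 FPKM in LINC00665 libraries and 212 ± 10.6 FPKM in Vector libraries, and the labels overlapped. ESCRT-0 (78.0 ± 5.37 and 67.8 ± 5.3), ESCRT-I (278 ± 23.7 and 244 ± 21.7) and ESCRT-III (525 ± 19.5 and 618 ± 42), in the same order of labels, differed less than the remaining groups, with no overlap between the labels. The VPS4 group stood at 45.1 ± 2.47 and 96.1 ± 13.1 FPKM, ALIX with syntenin and SMPD3 at 67.2 ± 3.34 and 118 ± 15.9 FPKM, and the flotillins at 75.8 ± 4.27 and 215 ± 11.9 FPKM. The Rab effectors had the largest ratio of these 8 sums, at 26.7 ± 0.965 FPKM, against 6.80 ± 0.916 FPKM in Vector libraries. Most of that sum in LINC00665 libraries was SYTL3 and SYTL1, at 12.4 and 8.15 FPKM, against 0.423 and 0.04 FPKM in Vector libraries. SYTL4 (4.07 and 3.25 FPKM), SYTL2 (1.07 and 2.76), EXPH5 (0.76 and 0.313) and SYTL5 (0.26 and 0.0067) held the rest, LINC00665 before Vector libraries. These sums describe the libraries and were not tested.

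**Figure D3:**
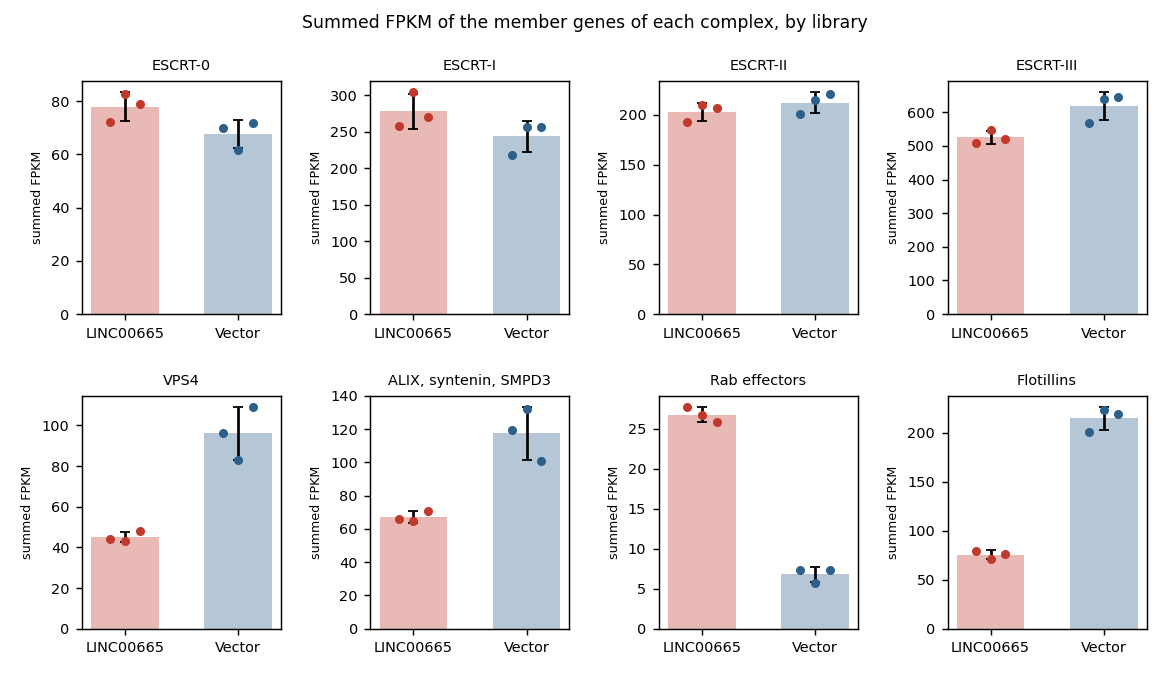
Summed FPKM of the members of each complex (vertical, from 0) in LINC00665 and Vector libraries, with bars at the mean, error bars for the SD over 3 libraries and a point per library. The VPS4 group (45.1 against 96.1) and the flotillins (75.8 against 215) are lower in LINC00665 libraries, and the Rab effectors (26.7 against 6.80) are higher. SYTL3 and SYTL1 make up most of the Rab effector sum in LINC00665 libraries. The points of ESCRT-II overlap.

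Related genes can fill the same place in a complex. The share of a gene in the summed FPKM of its family does not depend on scaling between libraries. CHMP1A made up 48.7, 51.5 and 48.9% of CHMP1 RNA in the LINC00665 libraries, against 81.5, 79.4 and 81.5% in the Vector libraries, so CHMP1B stood level with it under the LINC00665 label only. VPS4A made up 49.6 ± 5.1% of the VPS4 ATPase RNA in LINC00665 libraries and 68.2 ± 1.95% in Vector libraries (SD, n = 3 each). STAM held 84.4 ± 2.86% of the STAM pair in LINC00665 libraries and 61.5 ± 5.22% in Vector libraries, and FLOT2 70.3 ± 1.15% of the flotillins in LINC00665 libraries and 47.2 ± 8.65% in Vector libraries.

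VPS37B held 70.3 ± 3.86% of the VPS37 family in LINC00665 libraries and 52.1 ± 3.86% in Vector libraries, with VPS37A at 9.54 ± 0.466% and 25.5 ± 1.26% in the same order. MVB12A held 95.8 ± 0.524% and 83.4 ± 2.83%, CHMP4B 83.8 ± 2.01% and 71.4 ± 1.99%, and CHMP2A 70.6 ± 2.8% and 79.1 ± 3.27%, LINC00665 libraries before Vector libraries in each. Among the SYTL genes the makeup differed most. SYTL3 (47.9 ± 4.04%) and SYTL1 (31.3 ± 0.474%) led under the LINC00665 label, where SYTL4 held 15.7 ± 2.55% and SYTL2 4.14 ± 1.16%. Under the Vector label SYTL4 (50.4 ± 3.04%) and SYTL2 (42.3 ± 4.1%) led, and SYTL3 held 6.67 ± 1.73% and SYTL1 0.573 ± 0.497%. SYTL4 and SYTL2 themselves did not pass the edgeR test. The gene length behind their FPKM also differed between the labels (means of 2855 and 3616 bases for SYTL4, 4310 and 2333 for SYTL2, LINC00665 first). The level of SYTL4 under the LINC00665 label is uncertain, as stated above. For the gene with the highest mean share in each of the 9 families the shares of the labels did not overlap. The two-sided exact permutation p was 0.1, also after Benjamini-Hochberg adjustment over the 9, which is the smallest that 3 against 3 libraries can give. In CPM, 70.2% of all genes tested had no overlap. Shares were not computed for other groups of related genes, so whether this separation is particular to these families was not tested.

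**Figure D4:**
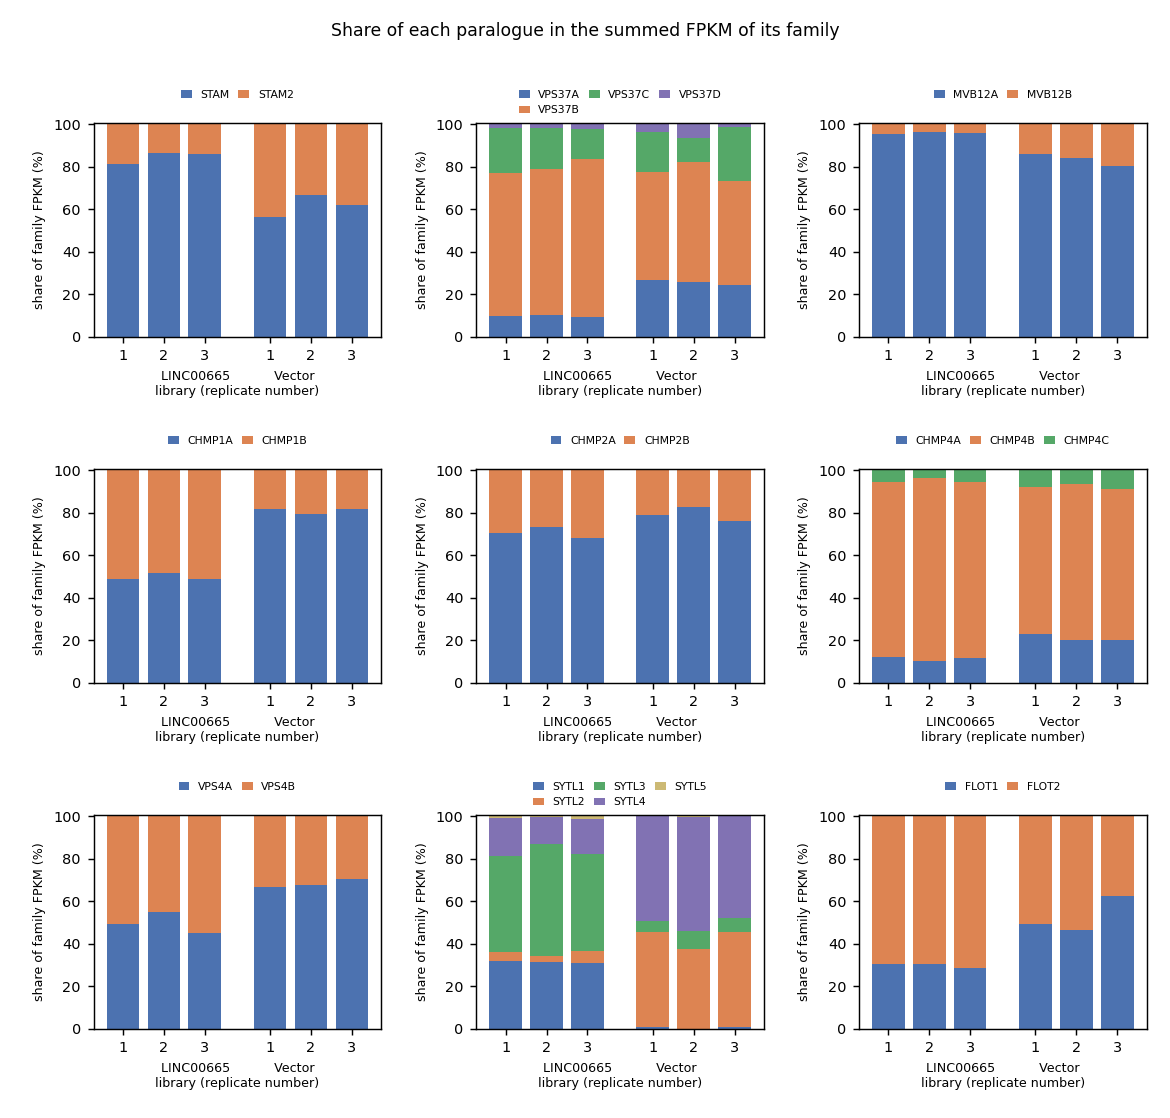
Share (%) of each gene in the summed FPKM of its family (vertical) in each library, the 3 LINC00665 libraries left of the 3 Vector libraries in every panel. CHMP1A is at 49.7% in LINC00665 libraries, against 80.8% in Vector libraries. The SYTL family is made mostly of SYTL3 and SYTL1 in LINC00665 libraries and of SYTL4 and SYTL2 in Vector libraries. SYTL4 and SYTL2 themselves did not pass the edgeR test.

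Ratios between partner subunits, also on FPKM, were computed for 8 pairs. The VPS37 genes together were 1.81 ± 0.14 times TSG101 in LINC00665 libraries and 0.954 ± 0.0502 times in Vector libraries, while VPS28 was 1.25 ± 0.179 times TSG101 in LINC00665 libraries and 2.57 ± 0.464 times in Vector libraries. CHMP3 was 0.208 ± 0.0193 times the CHMP2 genes in LINC00665 libraries and 0.764 ± 0.109 times in Vector libraries. The VPS4 ATPases were 0.158 ± 0.0231 times the CHMP4 genes in LINC00665 libraries and 0.411 ± 0.0754 times in Vector libraries. In these 4 ratios, and in that of VPS36 to SNF8, the labels did not overlap, and in the other 3 they did. These are ratios of RNA, with no test and no background from other pairs of genes.

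Other genes of the pathway moved both ways as well. Of 20 partners and regulators of ESCRT, 5 rose, 8 fell and 7 did not pass. The ubiquitin ligase NEDD4L rose (473 ± 33.2 CPM in LINC00665 libraries and 76.0 ± 8.02 CPM in Vector libraries), as did SPART (spartin), with a log2 fold change of 1.06. SPAST, the microtubule-severing spastin that CHMP1B recruits, fell (9.50 ± 1.68 and 24.1 ± 1.19 CPM in the same order), as did the ligase WWP2, by 1.09 on the log2 scale. Of 23 genes for docking and fusion of multivesicular bodies, 8 rose, 6 fell and 9 did not pass. UNC13D (Munc13-4), a Rab27 effector that primes vesicle fusion, was at 174, 174 and 181 CPM in the LINC00665 libraries, against 0.233, 0.777 and 0.621 CPM in the Vector libraries (log2 fold change 8.36, SE 0.33, adjusted p = 3.9e-07). It had 31 counts over the Vector libraries and passed the filter on low counts only through its level under the LINC00665 label. Entry by that route favours a difference, so the p-value of UNC13D supports nothing. STXBP2, a syntaxin-binding protein, rose (93.7 ± 4.03 CPM in LINC00665 libraries and 28.1 ± 2.96 CPM in Vector libraries), and STXBP3, of the same kind, fell (9.26 ± 0.469 CPM in LINC00665 libraries and 20.5 ± 1.67 CPM in Vector libraries). Of the GTPases that SYTL proteins bind, RAB27B was at 9.99 ± 3.36 CPM in LINC00665 libraries and 2.43 ± 1.3 CPM in Vector libraries (adjusted p = 0.0039), and RAB27A at 12.8 ± 0.463 and 20.6 ± 2.72 CPM (adjusted p = 0.0064); both GTPases are named here with their values already known, outside the rule for named genes.

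Of 14 syndecan, tetraspanin and related genes of the syntenin route, 13 were tested, 8 rose and 3 fell. SDC2, a syndecan, was at 1.21, 0.683 and 2.15 CPM in the LINC00665 libraries, against 48.8, 56.3 and 63.0 CPM in the Vector libraries (log2 fold change -5.38, SE 0.36, adjusted p = 5.6e-06). The syndecans moved both ways. SDC1 (191 ± 22.8 CPM in LINC00665 libraries and 66.7 ± 33.4 CPM in Vector libraries) and SDC4 (696 ± 47.3 and 247 ± 159 CPM) rose. SDC3 (36.8 ± 8.3 and 75.6 ± 34.3 CPM) fell. Their adjusted p by edgeR was 0.0083, 0.0097 and 0.032 in this order. For SDC3 the labels overlapped, with Vector replicate 3 at 37.05 CPM and the LINC00665 libraries at 27.48 to 43.4 CPM. Vector replicate 3 was also the lowest Vector library for SDC1 (28.1 CPM) and the highest for SDC4 (429 CPM). SDC1, SDC3 and SDC4 are named with their values already known, outside the rule for named genes. HPSE, the heparanase that trims syndecan chains, rose (30.5 ± 3.85 CPM in LINC00665 libraries and 6.23 ± 0.97 CPM in Vector libraries), as did the tetraspanin CD82 (122 ± 15.2 and 33.5 ± 6.75 CPM). PLD2, a phospholipase D of the same route, fell (26.9 ± 0.213 and 61.6 ± 2.17 CPM). Of 3 other sphingomyelinases, SMPD1, the lysosomal acid enzyme, rose (32.2 ± 4.4 CPM in LINC00665 libraries and 20.4 ± 3.74 CPM in Vector libraries, adjusted p = 0.014) and the others did not pass. These counts lie beside a background of 34.2% higher and 29.3% lower over all genes tested.

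SMPD3, VPS4A, IST1 and CHMP1A lie in this order on the long arm of chromosome 16, between 68358325 and 89657845 of GRCh38. VPS4A and CHMP1A fell, and SMPD3 (-0.97) and IST1 (-0.20) did not pass the test. Over all 141 genes tested in this stretch, 71 fell and 29 rose, with a median log2 fold change of -0.67, against 0.03 over all genes. Whether position has a part in the levels of these members was not tested.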

How the data were processed

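The authors deposited 1 table for the 6 libraries, holding expected counts per gene, which are not normalised. Beside them stand FPKM values, which the authors had scaled to transcript length and sequencing depth, per the file headers. The submitters' processing notes name HISAT2 2.0.4 and the build hg38. The counting tool, annotation and strand setting were not given in the sources used here, so overlapping or antisense genes cannot be told apart. Coordinates are from GENCODE v29 (GRCh38).

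Expected counts were rounded, low genes were removed with filterByExpr, and TMM factors were applied before edgeR 4.0.16 (glmQLFTest, R 4.3.3) compared the labels without covariates. P-values were adjusted by Benjamini-Hochberg over all 13552 genes tested, with a threshold of 0.05. Standard errors were derived from the log2 fold change and its F value. CPM uses effective library sizes. Library pairs of one label differed by more than sampling noise (chi-square per degree of freedom 9.85 to 116). On simulated data with 13552 genes, 200 of them changed, 40% of 2-fold and 88% of 4-fold changes were recovered and 3.03% of calls were false. In the data 63.5% of the genes tested were called, so these rates need not hold for this comparison. Alternatives were other scalings, filters and thresholds, DESeq2 1.42.0, limma 3.58.1 (voom, and trend on log2(FPKM + 1) and log2(FPKM + 0.1)), a block for replicate number, and leaving out each library. By rule, values in every library are given for up to 3 called members per complex and direction with the smallest p and for members at or under 1 CPM in either group, and up to 2 genes per direction are named from each other list. The members, lists and rules were chosen with earlier results of these data known. Genes used in the test for sample mix-ups are not reported. One gene that the rule names is not reported here.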

Additional observations from a re-analysis of the deposited data

How the results depend on the processing

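Of the 26 called members, 19 kept their call (8 higher and 11 lower) in every other fit in which they were tested, 7 lost it in at least 1, and none changed sign. The 8 higher include SYTL1, which passed the filter only through the LINC00665 label in the main fit. A minimum fold, given next, was not among those fits and left 14 calls. The members called higher were 11, but 7 with limma on log2(FPKM + 1), 7 on log2(FPKM + 0.1) and 6 when a log2 change of 1 or more in size was also required. The members called lower were 15, but 8 with that fold minimum, which also left 2156 of 3977 genes called lower in all. Without a single library the counts of members ranged from 8 to 13 higher and 11 to 15 lower. Total-count scaling moved the median log2 fold change of all genes to -0.13, against 0.03 in the main result, and 8 members were then called higher and 15 lower. CHMP7 (0.03, not called) was at -0.13 with total-count scaling, at -0.11 on both FPKM scales, and between -0.078 and 0.12 without a single library, and SYTL4 (0.15, not called) was at -0.012 with total-count scaling. Shares of CPM, which are not per length, gave differences of 29.1 points for MVB12A, -33.1 for CHMP1A, -11.9 for CHMP2A, 10.0 for CHMP4B, -14.2 for VPS4A and -42.8 for SYTL4, against 12.4, -31.1, -8.52, 12.4, -18.5 and -34.7 points on FPKM. Deviations of same-numbered libraries from their group means had r = 0.152, -0.132 and -0.154 across genes, against -0.107 to 0.207 for unlike numbers. Deviations from a mean of 3 libraries tend to cancel, so these values cannot show whether the numbers pair the libraries. With the replicate block 10 members were called higher and 13 lower, and MVB12A, CHMP4A and VPS4B lost their calls. Depth limits SYTL1 and SYTL5, with 4 and 2 counts over the Vector libraries, and SMPD3, with 29 counts over the LINC00665 libraries and 57 over the Vector libraries.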

Other observations

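The expected count of a gene divided by its FPKM and scaled by the library total gives the length that the authors' FPKM implies for that gene in that library. This comparison was chosen after the values were seen. Of 35 members at an FPKM of 0.5 or more in every library, 2 differed by 1.25-fold or more with no overlap between the labels (5.71%), as did 3.99% of 10670 genes tested. SYTL2 had an implied length of 4568, 4525 and 3837 bases in the LINC00665 libraries, against 2387, 2330 and 2283 bases in the Vector libraries. SYTL4 had 2829, 2835 and 2902 bases in the LINC00665 libraries, against 3295, 3819 and 3735 bases in the Vector libraries. VPS4B, past no such limit, was at 3014, 3140 and 2553 bases in LINC00665 libraries and 3336, 3336 and 3337 bases in Vector libraries. CHMP4B was at 1602 bases in every library. The transcripts themselves were not analysed here.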
